A study of Homo sapiens with 14 samples.

Results

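Cisplatin-resistant A2780 cells, labelled A2780-DDP, were compared with parental A2780 cells across all genes counted by RNA sequencing. A2780 is an established human ovarian cancer line, and DDP is a common abbreviation of cisplatin. The comparison rests on 4 of the 14 libraries of the series, 2 labelled A2780 with genotype DDP and 2 labelled A2780 with genotype WT, and the libraries were chosen by their labels alone. The other libraries came from OVCAR3, another ovarian cancer line, as parental cells, as a DDP derivative and as DDP cells with hairpins, including hairpins against the editing enzyme ADAR1. The study asked about RNA editing in cisplatin resistance. Gene counts do not give editing levels, so these were not analysed here. Not given in the sources used here were the cisplatin dose, the length of selection, the time since last exposure and whether A2780-DDP is 1 clone.

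Cisplatin enters cells partly through copper and anion transport proteins, is bound by thiols such as glutathione and metallothionein, and crosslinks bases of DNA. Excision repair removes most of these adducts, homologous recombination and the Fanconi anemia pathway deal with crosslinks met by a replication fork, and mismatch repair proteins take part in signalling from adducts to cell death. Resistant derivatives of cancer lines are known to differ from their parents in uptake, detoxification, repair, death signalling and cell state, and the gene groups below follow that order.

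Gene-assigned counts were 34506558 and 32804363 in the A2780-DDP libraries, against 31195174 and 32711137 in the parental ones. Levels are given per library in CPM, the count scaled to a gene-assigned total of 1000000. Fold changes are log2 of A2780-DDP over parental A2780 from edgeR, with an approximate standard error (SE) that can understate the error where counts are few. The labels do not tell whether replicates came from separate cultures, so the p-values reflect the spread of these samples, which may be technical. Replicates differed by more than sampling noise in both groups. Mitochondrial messenger RNA made up 2.31% and 2.55% of counts in A2780-DDP, against 3.40% and 3.51% in parental A2780, and its part in the results was not tested. VIM (vimentin), a mesenchymal filament protein, stood at 6081 and 5599 CPM in A2780-DDP and 5572 and 5791 CPM in parental A2780, and the epithelial keratins KRT8 and KRT18 were present in all 4 libraries. Of 25 ovarian carcinoma markers and surface antigens 12 reached 1 CPM. Summed levels of the 25 were 477 and 486 CPM in A2780-DDP, against 451 and 450.1 CPM in parental A2780. The sums hold changes in both directions, since by the rule given below 7 of 20 tested markers were higher and 4 lower. Log2 fold changes of these markers ran from −6.29 to 4.84. PAX8, a lineage factor among them, stayed under 1 CPM in all 4. Summed levels of 10 immune markers were 2.09 and 2.19 CPM in A2780-DDP, against 1.76 and 1.62 CPM in parental A2780, and 7 endothelial markers together stayed under 1 CPM in each library.

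A gene is called here when its edgeR quasi-likelihood p-value, adjusted over all 23031 genes tested, was under 0.05. By that rule 8123 genes were called (35.3%), 4145 higher (18%) and 3978 lower (17.3%) in A2780-DDP. At least a 2-fold change was seen in 3507 of them (15.2%), 1793 higher (7.79%) and 1714 lower (7.44%). Of 14965 protein-coding genes tested, 43.8% were called, 3415 higher and 3139 lower, against 22.3% of 1556 long intergenic noncoding RNA genes. As shares of protein-coding genes, 22.8% were higher and 21% lower. The counts of list members below are to be read beside these shares. The libraries of the groups did not overlap for 65.8% of all genes tested. Many genes named below were picked for large changes, so a lack of overlap in them was likely beforehand. The count of lower genes was 2566 without parental replicate 1 and 2639 without parental replicate 2.

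**Figure D1:**
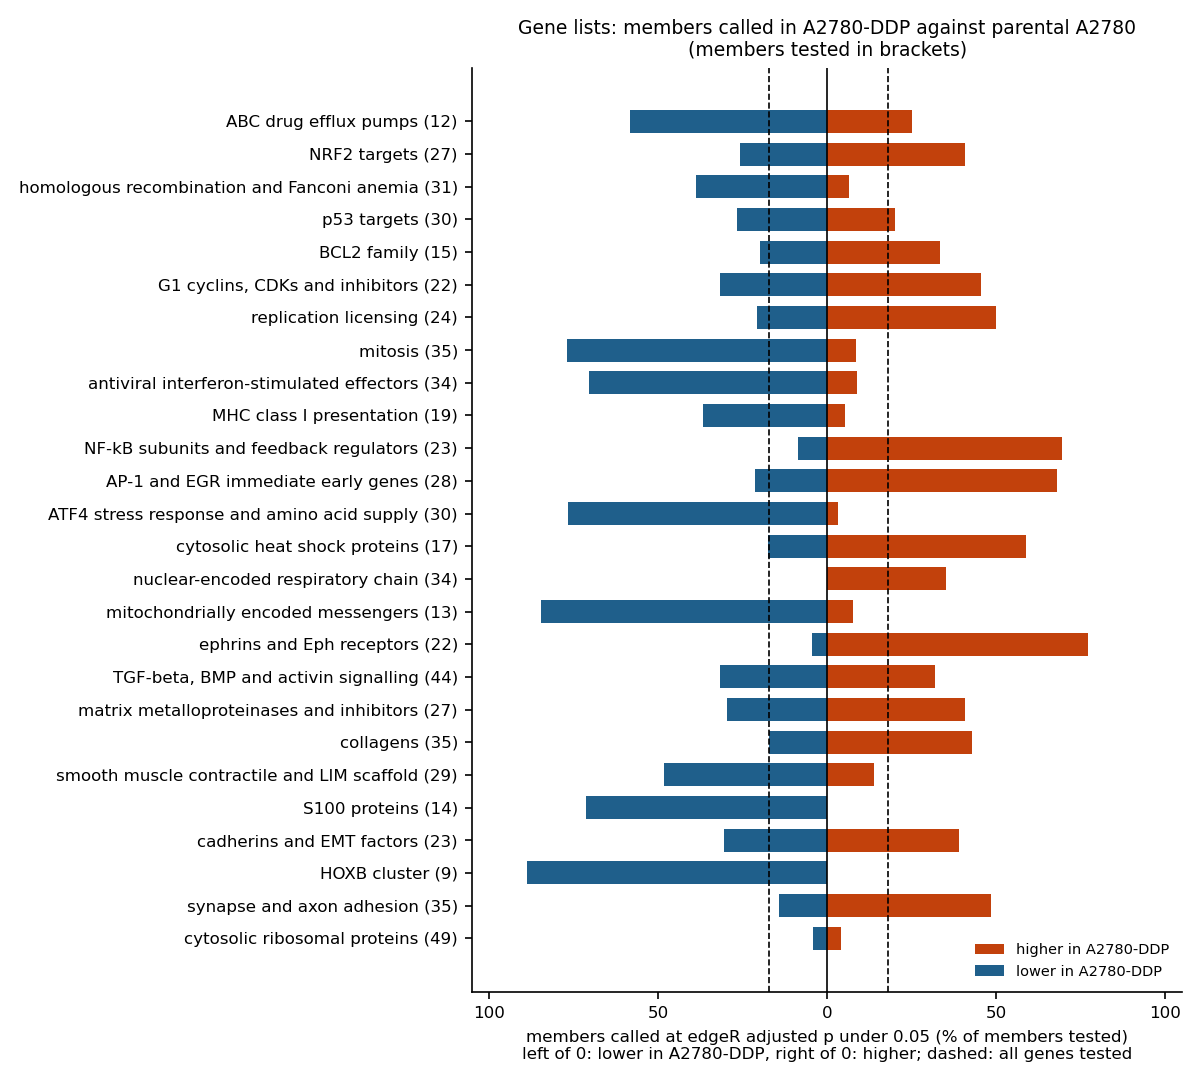
Share of the tested members of 26 gene lists called higher (right of 0) or lower (left of 0) in A2780-DDP against parental A2780, in percent of members tested, with the number tested in brackets; dashed lines mark the shares over all 23031 genes, 18% higher and 17.3% lower. Mitotic, antiviral, ATF4, S100 and HOXB genes lie mostly on the lower side, while ephrin, NF-kB, immediate early and heat shock genes lie mostly on the higher side. Over protein-coding genes alone the shares were 22.8% higher and 21% lower.

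ADAR, which encodes the adenosine-to-inosine editing enzyme ADAR1 that the study targeted in OVCAR3, was at 505 and 638 CPM in A2780-DDP, against 582 and 549.9 CPM in parental A2780 (log2 0.02, SE 0.12; edgeR adjusted p = 0.924). The 2 groups overlapped, since the parental libraries lay between the A2780-DDP ones. Of 5 tested deaminases of RNA and transfer RNA, none beside ADAT2 passed, and ADAT2 lost its call in several alternative fits.

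Of genes that move platinum across the membrane, 4 of 12 copper and platinum-handling transporters and 1 of 5 LRRC8 channel subunits were called. The share called was 35.3% over all genes tested and 43.8% over protein-coding genes. The copper importer SLC31A1 (ENSG00000136868.11; GRCh38, chromosome 9, 113221562 to 113264492, plus strand, protein coding), a route of cisplatin entry, was at 76.2 and 84.9 CPM in A2780-DDP, against 241 and 225 CPM in parental A2780. LRRC8D, a subunit of the volume-regulated anion channel that carries platinum drugs, was at 36.9 and 34.6 CPM in A2780-DDP, against 90.5 and 89.8 CPM in parental A2780 (log2 −1.32, SE 0.10; edgeR adjusted p = 2.70e-07). Both A2780-DDP libraries lay under both parental libraries for each gene, and 65.8% of all genes tested had no overlap. Of the 12 transporters 3 were higher and 1 lower, and the number called was 2 without A2780-DDP replicate 1 and 1 without parental replicate 1. The other 4 LRRC8 subunits were not called.

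Among 12 tested ABC transporters, 7 were lower and 3 higher. ABCC2, which exports glutathione conjugates, was at 0.145 and 0.244 CPM in A2780-DDP, against 59.2 and 55.7 CPM in parental A2780 (log2 −8.18, SE 0.22; edgeR adjusted p = 2.29e-11). ABCC6 was at 2.87 and 2.62 CPM in A2780-DDP, against 18.4 and 18.5 CPM in parental A2780 (log2 −2.74, SE 0.17; edgeR adjusted p = 6.57e-08). ABCB1, the pump known as P-glycoprotein, was at 0.667 and 0.335 CPM in A2780-DDP, against 18.7 and 17.8 CPM in parental A2780 (log2 −5.16, SE 0.31). ABCC4 went the other way, with 27.8 and 31.2 CPM in A2780-DDP, against 18.3 and 19.1 CPM in parental A2780 (log2 0.67, SE 0.12; edgeR adjusted p = 0.000767). The number of ABC genes called fell to 6 without A2780-DDP replicate 1, 5 without parental replicate 1 and 6 without parental replicate 2, while ABCC2, ABCC6, ABCB1 and ABCC4 kept their call in every alternative.

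Genes of thiol chemistry changed in opposite directions. GCLM, the modifier subunit of the enzyme that starts glutathione synthesis, was higher, with 149 and 136 CPM in A2780-DDP, against 53.5 and 52.6 CPM in parental A2780 (log2 1.43, SE 0.10; edgeR adjusted p = 9.80e-08). SLC7A11, which imports cystine for that synthesis, was higher too, with 249.8 and 267 CPM in A2780-DDP, against 142 and 131 CPM in parental A2780 (log2 0.93, SE 0.12). Its partner chain SLC3A2 was lower, with 337 and 314 CPM in A2780-DDP, against 481 and 488 CPM in parental A2780 (log2 −0.57, SE 0.09), and so was the glutathione-degrading enzyme CHAC1, with 54.3 and 51.5 CPM in A2780-DDP, against 172 and 181 CPM in parental A2780 (log2 −1.73, SE 0.10). In the list of glutathione synthesis and peroxidase genes 4 of 15 were higher and 4 lower.

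The metal-binding protein MT2A, a metallothionein, was lower at 15.2 and 12 CPM in A2780-DDP, against 56.4 and 65.2 CPM in parental A2780 (log2 −2.15, SE 0.14; edgeR adjusted p = 5.77e-08). Of 11 metallothionein genes 7 had no count in any of the 4 libraries, and 2 of the 5 tested were lower. MGST1, a microsomal glutathione transferase, was at 0.116 and 0 CPM in A2780-DDP and 14.9 and 12.4 CPM in parental A2780 (log2 −7.75, SE 0.39). The counts of GSTT2B are uncertain because near-identical copies of that gene exist.

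Targets of NRF2, the transcription factor that answers oxidative and electrophilic stress, were 11 higher and 7 lower of 27 tested. HMOX1, which breaks down heme, reached 959 and 902 CPM in A2780-DDP, against 70.4 and 71.8 CPM in parental A2780. OSGIN1, an oxidative stress-induced growth inhibitor, was at 49.4 and 48.3 CPM in A2780-DDP, against 17.8 and 18.3 CPM in parental A2780 (log2 1.45, SE 0.14; edgeR adjusted p = 2.76e-06). The autophagy receptor SQSTM1 was at 885 and 815 CPM in A2780-DDP, against 392 and 411 CPM in parental A2780 (log2 1.09, SE 0.10). The ferritin light chain FTL, which stores iron, was at 2007 and 1738 CPM in A2780-DDP, against 1155 and 1163 CPM in parental A2780 (log2 0.70, SE 0.11). Lower members included the aldo-keto reductases AKR1C1, at 0.0290 and 0.0915 CPM in A2780-DDP, against 4.33 and 2.81 CPM in parental A2780 (log2 −5.81, SE 0.67). AKR1C3 was at 0.0869 and 0.213 CPM in A2780-DDP, against 1.25 and 2.14 CPM in parental A2780 (log2 −3.48, SE 0.50). The reductases share long stretches of sequence, so reads of the family can be split between them. ME1 and TALDO1, which feed NADPH supply, were lower by a log2 fold change of −0.75 and −0.63. The iron exporter SLC40A1 had 1 count over both A2780-DDP libraries, against 2.44 and 2.02 CPM in parental A2780.

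Few nucleotide excision repair genes were called, 5 of 23 against 35.3% of all genes tested and 43.8% of protein-coding genes. The pathway cuts out platinum adducts, and its incision subunit ERCC1 was higher, with 232 and 213 CPM in A2780-DDP, against 157 and 170.3 CPM in parental A2780 (log2 0.45, SE 0.09; edgeR adjusted p = 0.00221). The helicase ERCC2, which opens DNA around the adduct, was lower, with 123 and 131 CPM in A2780-DDP, against 246 and 239 CPM in parental A2780 (log2 −0.92, SE 0.08; edgeR adjusted p = 2.21e-06). For both genes the groups did not overlap, as for 65.8% of all genes tested. Of the 23, 4 were higher and 1 lower, and the higher count was 1 without parental replicate 1 and 2 without parental replicate 2.

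Homologous recombination and Fanconi anemia genes were 12 lower and 2 higher of 31 tested, with a median log2 fold change of −0.05 against 0 over all genes. The share called was near the 43.8% over protein-coding genes, of which 21% were lower and 22.8% higher. BRIP1, a helicase that partners BRCA1, was at 22.3 and 23.5 CPM in A2780-DDP, against 55.6 and 53.6 CPM in parental A2780 (log2 −1.24, SE 0.11; edgeR adjusted p = 2.26e-06). BARD1, another partner of BRCA1, was at 27.3 and 26.9 CPM in A2780-DDP, against 52.6 and 45.2 CPM in parental A2780 (log2 −0.84, SE 0.11). FANCE of the Fanconi core complex stood at 21.9 and 22.2 CPM in A2780-DDP, against 39.7 and 37.4 CPM in parental A2780 (log2 −0.80, SE 0.10). BRCA2, which loads the recombinase, was at 9.22 and 10.4 CPM in A2780-DDP, against 17.6 and 15.3 CPM in parental A2780 (log2 −0.73, SE 0.14). RBBP8, which starts end resection, was higher at 89.3 and 88.7 CPM in A2780-DDP, against 58.4 and 56.7 CPM in parental A2780 (log2 0.64, SE 0.09). All 4 lower genes had both A2780-DDP libraries under both parental ones, and 65.8% of all genes tested had no overlap. Without parental replicate 1 the lower count was 7. HLTF, a fork remodeller of damage tolerance, was lower at 141 and 131 CPM in A2780-DDP, against 269 and 253 CPM in parental A2780 (log2 −0.92, SE 0.09; edgeR adjusted p = 4.05e-06).

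Of 9 tested mismatch repair genes 3 were higher, 1 lower and 5 not called. Over all genes tested 18% were higher and 17.3% lower. MSH3, a mismatch repair protein that recognises larger loops and whose gene lies on chromosome 5, was higher at 50.7 and 47.2 CPM in A2780-DDP, against 31.6 and 30.2 CPM in parental A2780 (log2 0.67, SE 0.10; edgeR adjusted p = 0.000161). PCNA, the sliding clamp of replication and repair, was higher at 213 and 179 CPM in A2780-DDP, against 120.0 and 123 CPM in parental A2780 (log2 0.70, SE 0.12).

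Death regulators of the BCL2 family changed on both sides. BCL2 itself (ENSG00000171791.14; GRCh38, chromosome 18, 63123346 to 63320128, minus strand, protein coding), which blocks mitochondrial death, was at 1.45 and 1.74 CPM in A2780-DDP, against 25.4 and 25.3 CPM in parental A2780 (log2 −3.98, SE 0.17; edgeR adjusted p = 1.31e-09). The blocker MCL1 was higher, with 494 and 501 CPM in A2780-DDP, against 291 and 289 CPM in parental A2780 (log2 0.79, SE 0.08; edgeR adjusted p = 6.15e-06). Of the BH3-only proteins that promote death, PMAIP1, also called NOXA, was lower at 8.72 and 8.05 CPM in A2780-DDP, against 38.8 and 41.9 CPM in parental A2780 (log2 −2.26, SE 0.10; edgeR adjusted p = 3.03e-09). HRK was higher at 18 and 18.4 CPM in A2780-DDP, against 4.46 and 4.16 CPM in parental A2780 (log2 2.09, SE 0.14; edgeR adjusted p = 1.32e-07). The effector BAX was higher at 75.6 and 70.9 CPM in A2780-DDP, against 47.2 and 50.7 CPM in parental A2780 (log2 0.59, SE 0.10). In all 5 the libraries of the groups did not overlap, as for 65.8% of all genes tested. Of 15 tested family members 5 were higher and 3 lower. Without parental replicate 1 the higher count was 3. The death receptor FAS was lower at 32.1 and 30.1 CPM in A2780-DDP, against 109 and 107 CPM in parental A2780 (log2 −1.78, SE 0.11; edgeR adjusted p = 4.56e-08). TNFSF10, the death ligand known as TRAIL, was at 34.2 and 33.4 CPM in A2780-DDP, against 0.994 and 1.22 CPM in parental A2780 (log2 4.93, SE 0.21; edgeR adjusted p = 1.77e-09).

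Targets of p53 were 6 higher and 8 lower of 30 tested. These counts were near the shares over protein-coding genes, 22.8% higher and 21% lower. CDKN1A, the p21 inhibitor of cell cycle kinases, was higher at 85.7 and 86.1 CPM in A2780-DDP, against 45.2 and 43.9 CPM in parental A2780 (log2 0.96, SE 0.09; edgeR adjusted p = 1.99e-06). PLK2 was higher at 303 and 293 CPM in A2780-DDP, against 129 and 126 CPM in parental A2780 (log2 1.24, SE 0.10). ZMAT3 stood at 23.5 and 26.4 CPM in A2780-DDP, against 14.9 and 13.5 CPM in parental A2780 (log2 0.83, SE 0.12). PHLDA3, which restrains AKT, was lower at 37.7 and 33.8 CPM in A2780-DDP, against 98.5 and 102 CPM in parental A2780 (log2 −1.48, SE 0.10). TIGAR, a fructose bisphosphatase, was at 6.58 and 8.69 CPM in A2780-DDP, against 19.7 and 20.1 CPM in parental A2780 (log2 −1.37, SE 0.17).

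Several genes that control entry into the cell cycle changed strongly. RB1 (ENSG00000139687.16; GRCh38, chromosome 13, 48303726 to 48599436, plus strand, protein coding), the retinoblastoma protein that holds E2F factors in check, was at 4.9 and 5.46 CPM in A2780-DDP, against 41.3 and 40.2 CPM in parental A2780 (log2 −2.97, SE 0.18; edgeR adjusted p = 3.91e-08). Its relative RBL1 was lower at 18.2 and 17.6 CPM in A2780-DDP, against 29.7 and 27.9 CPM in parental A2780 (log2 −0.67, SE 0.11). Genes beside RB1 on chromosome 13 did not follow it. ITM2B was at 86.7 and 74.3 CPM in A2780-DDP and 79.7 and 85 CPM in parental A2780. MED4 was at 21.9 and 16.2 CPM in A2780-DDP and 18.8 and 18 CPM in parental A2780, and neither gene was called. CCND2, the cyclin D2 that activates the kinases acting on RB1, was at 1.71 and 3.11 CPM in A2780-DDP, against 157 and 153 CPM in parental A2780 (log2 −6.0, SE 0.22; edgeR adjusted p = 3.35e-10). The kinase CDK6 was lower at 6.81 and 8.96 CPM in A2780-DDP, against 20.9 and 20.8 CPM in parental A2780 (log2 −1.40, SE 0.14; edgeR adjusted p = 3.81e-06). Cyclin D1, CCND1, was higher at 263 and 267 CPM in A2780-DDP, against 158 and 163 CPM in parental A2780 (log2 0.73, SE 0.08). Cyclin E1, CCNE1, was at 43.8 and 44.1 CPM in A2780-DDP, against 10.9 and 12.7 CPM in parental A2780 (log2 1.90, SE 0.11; edgeR adjusted p = 3.66e-08).

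Inhibitors of these kinases were mixed. CDKN1C, the p57 inhibitor, was higher at 26.4 and 20.2 CPM in A2780-DDP, against 4.78 and 4.8 CPM in parental A2780 (log2 2.29, SE 0.20; edgeR adjusted p = 1.22e-06). CDKN1B, the p27 inhibitor, stood at 170.4 and 161 CPM in A2780-DDP, against 101 and 104 CPM in parental A2780 (log2 0.70, SE 0.09). CDKN2C, the p18 inhibitor of CDK4 and CDK6, was lower at 36.9 and 34.9 CPM in A2780-DDP, against 92 and 91 CPM in parental A2780 (log2 −1.34, SE 0.09). In total 10 of 22 G1 regulators were higher and 7 lower.

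Genes of DNA replication and of mitosis parted. Licensing genes were 12 higher and 5 lower of 24. The helicase subunits MCM4 and MCM5 were both called. MCM4 was at 196 and 199 CPM in A2780-DDP, against 126 and 121 CPM in parental A2780. MCM5 stood at 215 and 214 CPM in A2780-DDP, against 130.3 and 135 CPM in parental A2780 (log2 0.70, SE 0.09). The lower count in that list was 3 with DESeq2 size factors and 1 without A2780-DDP replicate 2. Mitotic genes were 27 lower and 3 higher of 35, with a median log2 fold change of −0.65. KIF14, a motor of the midbody, was at 40.6 and 43.9 CPM in A2780-DDP, against 116 and 107 CPM in parental A2780 (log2 −1.39, SE 0.10; edgeR adjusted p = 3.37e-07). CDCA8, a subunit of the chromosomal passenger complex, was at 62 and 65.1 CPM in A2780-DDP, against 138 and 138 CPM in parental A2780 (log2 −1.11, SE 0.09). The proliferation marker MKI67 was at 106 and 173 CPM in A2780-DDP, against 302 and 289.6 CPM in parental A2780 (log2 −1.08, SE 0.22). In bulk RNA fewer cells in a phase and less RNA per cell cannot be told apart, so these values do not give the number of cells in mitosis.

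**Figure D2:**
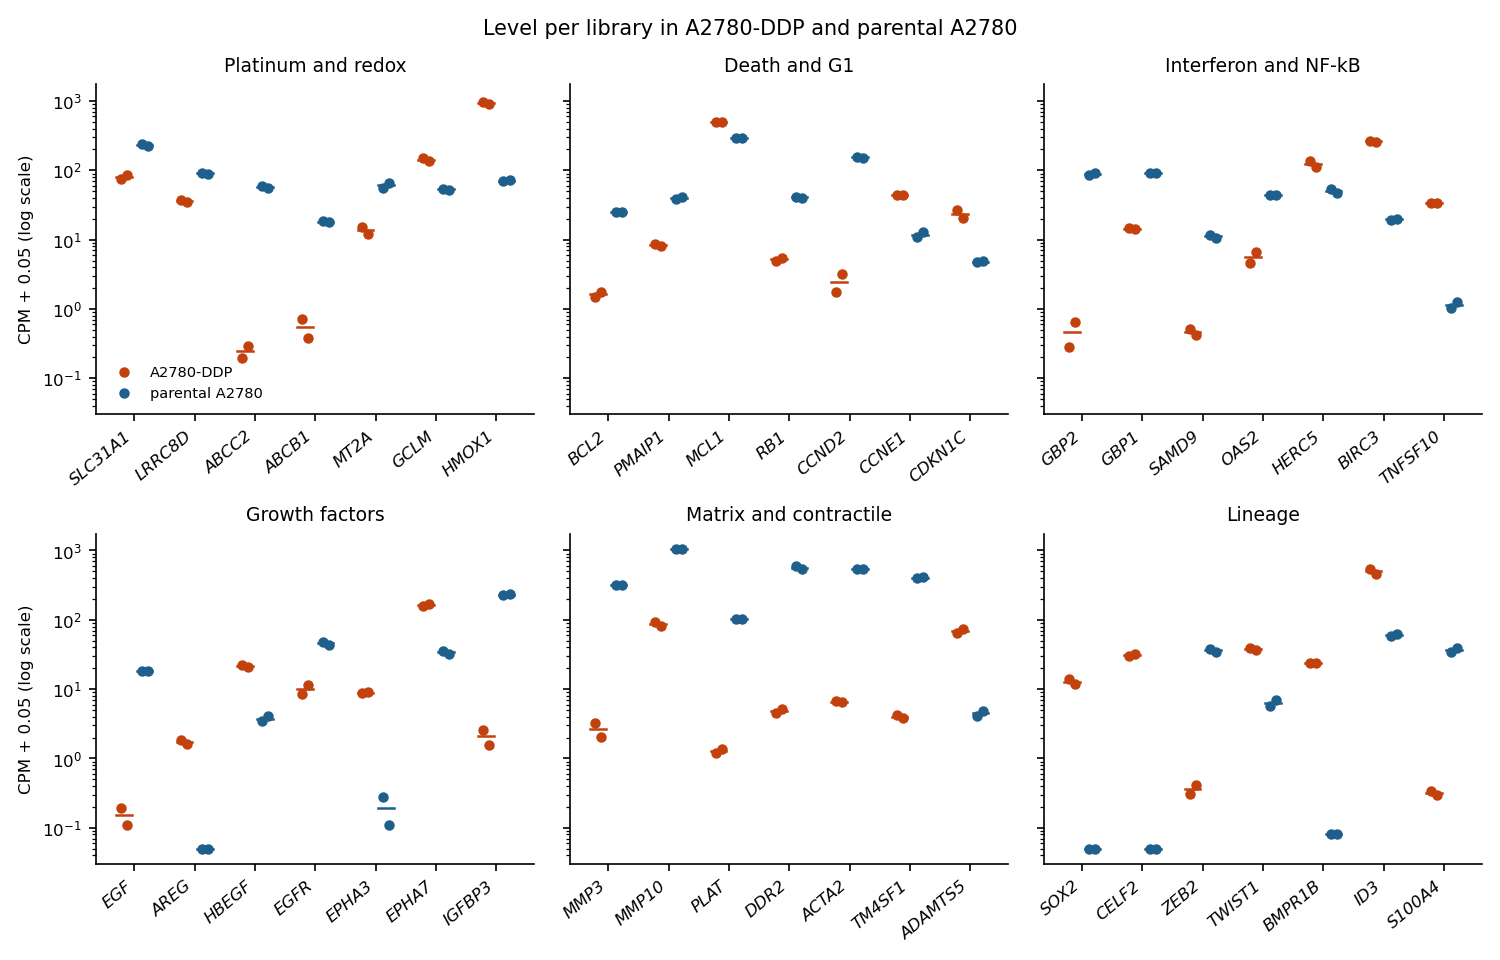
Level of 42 genes in each library as CPM plus 0.05 on a log scale, with the 2 A2780-DDP libraries (orange) left of the 2 parental libraries (blue) and a bar at each mean. No pair of groups overlaps, as for 65.8% of all genes tested, and SOX2, CELF2 and AREG sit at 0 counts in parental A2780.

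Interferon-stimulated genes, which interferon-activated STAT and IRF factors switch on through a promoter element called ISRE, were lower for the most part. Of 34 antiviral effectors 24 were lower and 3 higher, and all 5 tested guanylate-binding proteins were lower. Promoters of a lower pair and of a higher gene are shown because both directions carried the element, searched here as GAAA, any 2 bases and GAAA again. Both strands were searched over 250 bases before and 50 after each gene start in RefSeq (GRCh38.p14). Capitals mark each match, and the gene strand is given 5′ to 3′.
GBP1 promoter, chr1:89065159-89065458, minus strand: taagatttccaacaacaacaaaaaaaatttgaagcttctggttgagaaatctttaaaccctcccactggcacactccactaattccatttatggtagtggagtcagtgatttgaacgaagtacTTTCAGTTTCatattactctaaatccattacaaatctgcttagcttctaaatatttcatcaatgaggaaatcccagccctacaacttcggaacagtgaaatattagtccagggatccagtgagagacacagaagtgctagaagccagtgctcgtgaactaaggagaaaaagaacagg
SAMD9 promoter, chr7:93117930-93118229, minus strand: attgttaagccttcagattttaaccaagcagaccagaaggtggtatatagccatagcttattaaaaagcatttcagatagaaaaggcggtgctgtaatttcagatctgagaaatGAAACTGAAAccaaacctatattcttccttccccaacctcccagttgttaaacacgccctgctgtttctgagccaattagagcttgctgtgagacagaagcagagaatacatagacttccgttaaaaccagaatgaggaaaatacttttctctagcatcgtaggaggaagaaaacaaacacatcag
HERC5 promoter, chr4:88456869-88457168, plus strand: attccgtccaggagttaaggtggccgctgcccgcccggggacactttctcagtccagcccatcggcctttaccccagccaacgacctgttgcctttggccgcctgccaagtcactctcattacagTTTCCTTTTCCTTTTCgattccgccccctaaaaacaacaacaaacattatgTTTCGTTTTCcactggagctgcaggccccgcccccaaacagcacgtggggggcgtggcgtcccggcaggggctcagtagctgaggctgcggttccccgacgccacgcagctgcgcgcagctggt

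GBP1 (ENSG00000117228.11; GRCh38, chromosome 1, 89052319 to 89065360, minus strand, protein coding), a GTPase that attacks the shells of intracellular pathogens, was at 14.6 and 14.1 CPM in A2780-DDP, against 90.7 and 90.1 CPM in parental A2780. GBP2, a family relative, was at 0.232 and 0.610 CPM in A2780-DDP, against 84.6 and 92.6 CPM in parental A2780. GBP3 stood at 6.29 and 5.67 CPM in A2780-DDP, against 15.6 and 17.5 CPM in parental A2780 (log2 −1.46, SE 0.17; edgeR adjusted p = 2.10e-05). SAMD9, an antiviral restriction factor, was at 0.464 and 0.366 CPM in A2780-DDP, against 11.6 and 10.6 CPM in parental A2780. Its neighbour and paralog SAMD9L was at 0.116 and 0.152 CPM in A2780-DDP, against 23.7 and 23.4 CPM in parental A2780 (log2 −7.41, SE 0.37; edgeR adjusted p = 6.12e-09). HERC5, the ligase that attaches ISG15 to new proteins, went the other way at 137 and 113 CPM in A2780-DDP, against 53.6 and 46.9 CPM in parental A2780 (log2 1.33, SE 0.13; edgeR adjusted p = 4.60e-06). The ligase promoter held 3 matches, of which 2 overlapped, and the GBP1 and SAMD9 promoters 1 each. Matches stood in 18 of 39 promoters of lower interferon-list genes (46.2%), 7 of 12 of higher ones (58.3%) and 12 of 29 of uncalled ones (41.4%), against 405 of 13610 promoters of all tested genes (2.98%). A match is a run of letters and not a measured binding site.

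XAF1, which counters inhibitors of apoptosis, was lower at 0.493 and 0.823 CPM in A2780-DDP, against 10.6 and 11.2 CPM in parental A2780 (log2 −4.04, SE 0.32; edgeR adjusted p = 5.03e-07). OAS2, a synthetase switched on by double-stranded RNA, was at 4.49 and 6.55 CPM in A2780-DDP, against 44.7 and 43.6 CPM in parental A2780 (log2 −2.99, SE 0.18; edgeR adjusted p = 4.36e-08). Of 10 tested sensors of double-stranded RNA and DNA 4 were lower, 2 higher and 4 not called, with log2 fold changes from −2.62 to 1.06. TLR3, the endosomal sensor of double-stranded RNA, was at 2.43 and 2.04 CPM in A2780-DDP, against 14.3 and 13.5 CPM in parental A2780 (log2 −2.62, SE 0.23; edgeR adjusted p = 1.45e-06). The adaptor MAVS was at 65 and 88.1 CPM in A2780-DDP, against 161 and 131 CPM in parental A2780 (log2 −0.92, SE 0.14). In XAF1, OAS2, TLR3 and MAVS A2780-DDP lay under parental A2780 without overlap, and 65.8% of all genes tested had no overlap. IFIT2, an effector of the same class, was higher at 89.6 and 90.7 CPM in A2780-DDP, against 70.4 and 64.1 CPM in parental A2780 (log2 0.43, SE 0.09).

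Type III interferon genes changed in opposite directions. IFNL1 was lower at 3.22 and 3.35 CPM in A2780-DDP, against 15.4 and 16.3 CPM in parental A2780 (log2 −2.26, SE 0.20; edgeR adjusted p = 1.83e-06). Its relative IFNL3 was higher at 11.7 and 11.2 CPM in A2780-DDP, against 3.78 and 4.28 CPM in parental A2780 (log2 1.52, SE 0.22), with the limit that IFNL2 and IFNL3 are near-identical copies. SOCS3, which shuts down cytokine receptors, was higher at 62.3 and 68.1 CPM in A2780-DDP, against 24 and 21.8 CPM in parental A2780 (log2 1.52, SE 0.10; edgeR adjusted p = 7.57e-08). The factor IRF1 was higher at 38.8 and 39.96 CPM in A2780-DDP, against 21.5 and 20.8 CPM in parental A2780 (log2 0.91, SE 0.11). STAT3 and STAT2 were lower by a log2 fold change of −0.76 and −0.46. NLRC5, the transactivator of MHC class I genes, was lower at 11.5 and 12.7 CPM in A2780-DDP, against 54 and 50.3 CPM in parental A2780 (log2 −2.09, SE 0.13; edgeR adjusted p = 4.47e-08). Of 19 class I presentation genes 7 were lower and 1 higher, and without A2780-DDP replicate 2 and without parental replicate 2 the lower count was 3, and 4 without parental replicate 1.

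Genes of NF-kB, the inflammatory factor whose inhibitors it induces in turn, were higher. Of 23 tested, 16 were higher and 2 lower, with a median log2 fold change of 0.54. BIRC3, an inhibitor of apoptosis, was at 269 and 261 CPM in A2780-DDP, against 19.5 and 20.1 CPM in parental A2780. Its neighbour on chromosome 11, BIRC2, stood at 181 and 170.0 CPM in A2780-DDP, against 83.9 and 77.9 CPM in parental A2780 (log2 1.13, SE 0.09; edgeR adjusted p = 7.24e-07). The subunit RELB was at 136 and 124 CPM in A2780-DDP, against 55.7 and 54.7 CPM in parental A2780 (log2 1.25, SE 0.13; edgeR adjusted p = 9.48e-06). The inhibitor NFKBIA was at 69.8 and 64.2 CPM in A2780-DDP, against 27.2 and 29.8 CPM in parental A2780 (log2 1.24, SE 0.10; edgeR adjusted p = 7.35e-07). NFKBIB stood at 89.8 and 79.4 CPM in A2780-DDP, against 44.2 and 45.3 CPM in parental A2780 (log2 0.93, SE 0.10). Each of the 5 was higher in both A2780-DDP libraries, and 65.8% of all genes tested had no overlap between the groups.

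Secreted inflammatory proteins did not move as one, with 6 higher and 8 lower of 24. Among all protein-coding genes tested 22.8% were higher and 21% lower. IL11, a cytokine of the IL6 family, was higher at 36.4 and 37.6 CPM in A2780-DDP, against 6.6 and 6.94 CPM in parental A2780 (log2 2.46, SE 0.15; edgeR adjusted p = 3.22e-08). The adhesion molecule ICAM1 was at 10.8 and 11.2 CPM in A2780-DDP, against 0.545 and 0.367 CPM in parental A2780. CCL5, a T cell chemokine, was lower at 31.7 and 29 CPM in A2780-DDP, against 110.4 and 121 CPM in parental A2780 (log2 −1.92, SE 0.10; edgeR adjusted p = 9.26e-09). The interferon-induced chemokine CXCL10 was at 0.696 and 0.244 CPM in A2780-DDP, against 5.32 and 4.0 CPM in parental A2780 (log2 −3.28, SE 0.36). CCR1, a receptor for such chemokines, had 1 count in A2780-DDP and 50.2 and 49.1 CPM in parental A2780.

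Immediate early genes, which growth factors switch on within minutes, were 19 higher and 6 lower of 28. EGR2 was at 13 and 15.1 CPM in A2780-DDP, against 0.0962 and 0.0306 CPM in parental A2780 (log2 7.74, SE 0.39; edgeR adjusted p = 6.73e-09). FOSB stood at 18 and 21.4 CPM in A2780-DDP, against 3.33 and 3.52 CPM in parental A2780 (log2 2.53, SE 0.18). The phosphatase DUSP2, which turns off MAP kinases, was at 35.2 and 31.2 CPM in A2780-DDP, against 6.57 and 6.02 CPM in parental A2780 (log2 2.41, SE 0.14). IER3 was lower at 24.1 and 21.2 CPM in A2780-DDP, against 151 and 148 CPM in parental A2780 (log2 −2.71, SE 0.12; edgeR adjusted p = 2.78e-09). KLF6 stood at 33.1 and 38.5 CPM in A2780-DDP, against 118 and 125 CPM in parental A2780 (log2 −1.75, SE 0.13). ATF3 was at 36.7 and 37.5 CPM in A2780-DDP, against 99.2 and 108 CPM in parental A2780 (log2 −1.47, SE 0.11).

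Ligands of the EGF receptor family differed gene by gene. EGF itself (ENSG00000138798.13; GRCh38, chromosome 4, 109912884 to 110012266, plus strand, protein coding) was at 0.145 and 0.0610 CPM in A2780-DDP, against 18.2 and 18 CPM in parental A2780 (log2 −7.39, SE 0.30; edgeR adjusted p = 1.15e-09). NRG4, a ligand of ERBB4, was lower at 1.59 and 1.95 CPM in A2780-DDP, against 6.92 and 7.25 CPM in parental A2780 (log2 −1.99, SE 0.24). The other called ligands were higher. AREG, amphiregulin, had 1.83 and 1.59 CPM in A2780-DDP and no count in parental A2780, which is at least 36.4-fold higher if 3 counts over the parental group are taken as its floor. EREG, epiregulin, was at 2.7 and 2.87 CPM in A2780-DDP, against 0.289 and 0 CPM in parental A2780 (log2 4.28, SE 0.70). HBEGF was at 21.9 and 21.1 CPM in A2780-DDP, against 3.43 and 4.0 CPM in parental A2780 (log2 2.54, SE 0.15; edgeR adjusted p = 3.71e-08). TGFA was at 3.88 and 4.12 CPM in A2780-DDP, against 1.41 and 0.734 CPM in parental A2780 (log2 1.91, SE 0.29). NRG1 stood at 17.3 and 17.9 CPM in A2780-DDP, against 8.17 and 8.25 CPM in parental A2780 (log2 1.11, SE 0.15). NRG2 was at 18.1 and 14.9 CPM in A2780-DDP, against 6.83 and 7.0 CPM in parental A2780 (log2 1.27, SE 0.17). In all, 6 of 9 tested ligands were higher and 2 lower. The EGF receptor gene EGFR was lower at 8.43 and 11.4 CPM in A2780-DDP, against 48.5 and 43.7 CPM in parental A2780 (log2 −2.21, SE 0.18; edgeR adjusted p = 6.71e-07). HBEGF was above 20 CPM in both A2780-DDP libraries, and no other tested ligand reached that level in a library.

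Ephrins and Eph receptors, which signal between touching cells, were 17 higher and 1 lower of 22, with a median log2 fold change of 1.57. EPHA7 was at 157 and 169 CPM in A2780-DDP, against 35.9 and 31.9 CPM in parental A2780 (log2 2.28, SE 0.11; edgeR adjusted p = 1.84e-08). EPHA3 stood at 8.75 and 8.9 CPM in A2780-DDP, against 0.224 and 0.0611 CPM in parental A2780 (log2 5.94, SE 0.46; edgeR adjusted p = 4.49e-07). Among the ligands EFNA2 was at 18 and 15.5 CPM in A2780-DDP, against 2.28 and 2.17 CPM in parental A2780 (log2 2.92, SE 0.22). EFNB3 was at 19.7 and 21.6 CPM in A2780-DDP, against 6.06 and 4.89 CPM in parental A2780 (log2 1.93, SE 0.17). EFNA1 was the lower one, at 5.33 and 5.73 CPM in A2780-DDP, against 11.7 and 12.3 CPM in parental A2780 (log2 −1.11, SE 0.12; edgeR adjusted p = 1.08e-05). Each of the 4 higher genes had both A2780-DDP libraries above both parental ones, and 65.8% of all genes tested had no overlap.

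Other secreted factors and their receptors showed large single changes. FGF20, a fibroblast growth factor, was at 41.3 and 36.7 CPM in A2780-DDP and had 2 counts in parental A2780. FGF21, a metabolic hormone, was lower at 0.811 and 1.07 CPM in A2780-DDP, against 20.4 and 20.4 CPM in parental A2780 (log2 −4.43, SE 0.24; edgeR adjusted p = 1.39e-08). The receptors FGFR3 and FGFRL1 were higher. FGFR3 was at 21.7 and 24.5 CPM in A2780-DDP, against 6.92 and 7.37 CPM in parental A2780 (log2 1.70, SE 0.13). FGFRL1 stood at 98.6 and 114 CPM in A2780-DDP, against 33.4 and 38.4 CPM in parental A2780 (log2 1.58, SE 0.13). SEMA3A, a repulsive axon guidance protein, was at 158 and 167 CPM in A2780-DDP, against 1.63 and 1.25 CPM in parental A2780 (log2 6.82, SE 0.14; edgeR adjusted p = 4.59e-12). IGFBP3, which binds insulin-like growth factors, was lower at 2.55 and 1.52 CPM in A2780-DDP, against 226 and 235 CPM in parental A2780 (log2 −6.81, SE 0.18; edgeR adjusted p = 6.77e-11). IGF2 was higher at 5.68 and 6.65 CPM in A2780-DDP, against 0.577 and 0.550 CPM in parental A2780 (log2 3.45, SE 0.28). ADM, the vasodilator adrenomedullin, was higher at 213 and 195 CPM in A2780-DDP, against 11.4 and 11 CPM in parental A2780 (log2 4.19, SE 0.13; edgeR adjusted p = 1.03e-10).

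In the list of lysophosphatidic acid receptors and autotaxin 4 of 10 tested genes were higher and 2 lower, with a median log2 fold change of 0.95. LPAR1 and LPAR3, receptors for lysophosphatidic acid, a growth signal abundant in ovarian cancer ascites, were lower. LPAR1 was at 0.0869 and 0.152 CPM in A2780-DDP, against 20.4 and 21.6 CPM in parental A2780 (log2 −7.41, SE 0.29; edgeR adjusted p = 1.97e-09). LPAR3 had no count in A2780-DDP and 2.95 and 2.08 CPM in parental A2780, at least 56.2-fold lower. S1PR3 and S1PR5, receptors for the related lipid sphingosine 1-phosphate, were higher. S1PR3 was at 20.9 and 25.7 CPM in A2780-DDP, against 7.21 and 7.43 CPM in parental A2780 (log2 1.68, SE 0.21). S1PR5 stood at 26 and 24.3 CPM in A2780-DDP, against 11.5 and 15.6 CPM in parental A2780 (log2 0.90, SE 0.15).

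Genes of the TGF-beta superfamily, which includes bone morphogenetic proteins and activins, changed in both directions. BMPR1B, a bone morphogenetic protein receptor, was at 23.5 and 24.1 CPM in A2780-DDP and had 2 counts in parental A2780, a ratio of 760.5 (95% counting interval 210.2 to 6285). ID3 and ID2, helix-loop-helix inhibitors known as targets of that pathway, were both called. ID3 was at 538 and 463 CPM in A2780-DDP, against 59.2 and 61.9 CPM in parental A2780 (log2 3.06, SE 0.13; edgeR adjusted p = 1.91e-09). ID2 stood at 122 and 109.9 CPM in A2780-DDP, against 15.8 and 18.6 CPM in parental A2780 (log2 2.76, SE 0.12; edgeR adjusted p = 1.83e-09). INHBB, a subunit of activin B, was at 13.7 and 15.8 CPM in A2780-DDP, against 0.321 and 0.122 CPM in parental A2780 (log2 6.06, SE 0.29; edgeR adjusted p = 4.31e-09). CHRD, which traps bone morphogenetic proteins, was at 17.9 and 16.9 CPM in A2780-DDP, against 2.79 and 1.07 CPM in parental A2780 (log2 3.19, SE 0.26). TGFB2 was lower at 5.48 and 6.28 CPM in A2780-DDP, against 17.6 and 18.4 CPM in parental A2780 (log2 −1.60, SE 0.18), and its receptors TGFBR2 and TGFBR3 by a log2 fold change of −1.30 and −1.28. Over the list of 44 tested genes, 14 were higher and 14 lower.

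Some Wnt and Hedgehog ligands were higher in A2780-DDP. WNT7B was at 3.3 and 3.38 CPM in A2780-DDP, with 1 count in parental A2780. WNT11 was at 4.84 and 5.82 CPM in A2780-DDP, against 0.673 and 1.1 CPM in parental A2780 (log2 2.58, SE 0.27). SHH, sonic hedgehog, was at 3.8 and 3.84 CPM in A2780-DDP, with 3 counts in parental A2780, a ratio of 81.3 (95% counting interval 27.5 to 397). Of 30 Wnt ligands and frizzled receptors 11 were higher and 3 lower, and the receptor ROR2 was at 19.5 and 21.4 CPM in A2780-DDP, against 5.55 and 4.55 CPM in parental A2780 (log2 2.03, SE 0.13; edgeR adjusted p = 7.87e-08). The Hedgehog factors GLI2 and GLI3 were lower. GLI2 was at 15.8 and 21.9 CPM in A2780-DDP, against 34.5 and 34.1 CPM in parental A2780 (log2 −0.86, SE 0.15). GLI3 stood at 9.42 and 11.4 CPM in A2780-DDP, against 19.7 and 18.5 CPM in parental A2780 (log2 −0.87, SE 0.12). Notch genes were 12 higher and 5 lower of 26. The ligand DLL1 was at 18.2 and 20.4 CPM in A2780-DDP, against 4.71 and 5.17 CPM in parental A2780 (log2 1.97, SE 0.12). The feedback gene NRARP stood at 108 and 95.9 CPM in A2780-DDP, against 27 and 28.4 CPM in parental A2780 (log2 1.89, SE 0.16; edgeR adjusted p = 9.20e-07). The target HEY1 was lower at 2.75 and 2.41 CPM in A2780-DDP, against 16.7 and 20.4 CPM in parental A2780 (log2 −2.83, SE 0.18; edgeR adjusted p = 6.35e-08). The coactivator MAML3 was at 0.174 and 0.152 CPM in A2780-DDP, against 6.83 and 6.48 CPM in parental A2780 (log2 −5.31, SE 0.32).

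Several enzymes that break down the extracellular matrix were much lower in A2780-DDP. MMP10, a stromelysin that also activates other matrix enzymes, was at 92.3 and 81.5 CPM in A2780-DDP, against 1053 and 1035 CPM in parental A2780 (log2 −3.58, SE 0.11; edgeR adjusted p = 6.77e-11). MMP3, the related stromelysin, was at 3.16 and 1.98 CPM in A2780-DDP, against 321 and 313 CPM in parental A2780 (log2 −6.93, SE 0.21; edgeR adjusted p = 6.77e-11). PLAT and PLAU, the tissue-type and urokinase plasminogen activators, were both called. PLAT was at 1.16 and 1.31 CPM in A2780-DDP, against 104 and 104 CPM in parental A2780 (log2 −6.38, SE 0.13; edgeR adjusted p = 4.59e-12). PLAU stood at 2.03 and 1.55 CPM in A2780-DDP, against 16.2 and 17.3 CPM in parental A2780 (log2 −3.21, SE 0.17; edgeR adjusted p = 1.30e-08). None of these groups overlapped, and 65.8% of all genes tested had no overlap. Other members were higher, with ADAMTS5, an aggrecan-cutting enzyme, at 65.2 and 72.7 CPM in A2780-DDP, against 4.1 and 4.71 CPM in parental A2780 (log2 3.98, SE 0.17; edgeR adjusted p = 1.97e-09). MMP17 stood at 10.8 and 7.65 CPM in A2780-DDP, against 1.86 and 1.22 CPM in parental A2780 (log2 2.59, SE 0.25). The list of 27 had 11 higher and 8 lower members.

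The collagen receptor DDR2 fell to 4.46 and 5.09 CPM in A2780-DDP, against 592 and 538 CPM in parental A2780 (log2 −6.88, SE 0.14; edgeR adjusted p = 4.59e-12). Collagen genes were 15 higher and 6 lower of 35. COL14A1 and COL11A1 were higher. COL14A1 was at 43.8 and 51.8 CPM in A2780-DDP, against 2.79 and 1.99 CPM in parental A2780 (log2 4.34, SE 0.20; edgeR adjusted p = 3.41e-09). COL11A1 stood at 30.5 and 34.5 CPM in A2780-DDP, against 1.86 and 1.62 CPM in parental A2780 (log2 4.23, SE 0.21). COL1A2, a chain of fibrillar type I collagen, was lower at 8.14 and 7.68 CPM in A2780-DDP, against 63.3 and 59.8 CPM in parental A2780 (log2 −2.95, SE 0.13; edgeR adjusted p = 2.17e-08). COL13A1 was at 0.435 and 1.07 CPM in A2780-DDP, against 11.7 and 8.99 CPM in parental A2780 (log2 −3.78, SE 0.31). Laminin LAMB1 was lower at 34.7 and 41 CPM in A2780-DDP, against 129 and 121 CPM in parental A2780 (log2 −1.71, SE 0.10). LAMC3 was higher at 37.5 and 40.2 CPM in A2780-DDP, against 8.3 and 7.25 CPM in parental A2780 (log2 2.33, SE 0.13).

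Of 29 contractile and LIM scaffold genes 14 were lower, 4 higher and 11 not called, and without parental replicate 2 the lower count was 9. ACTA2, smooth muscle actin, was at 6.61 and 6.49 CPM in A2780-DDP, against 540.5 and 546 CPM in parental A2780 (log2 −6.36, SE 0.12; edgeR adjusted p = 4.59e-12). PDLIM3 and LMOD1, which bind actin filaments, were both called. PDLIM3 was at 0.232 and 0.213 CPM in A2780-DDP, against 26.4 and 29.7 CPM in parental A2780. LMOD1 stood at 0.290 and 1.16 CPM in A2780-DDP, against 23.4 and 24.3 CPM in parental A2780 (log2 −5.04, SE 0.34). CALD1, caldesmon, was lower at 16.7 and 17.3 CPM in A2780-DDP, against 129 and 112 CPM in parental A2780 (log2 −2.81, SE 0.10; edgeR adjusted p = 3.74e-10). TAGLN, another actin-binding protein of smooth muscle, went the other way at 1100.3 and 1008 CPM in A2780-DDP, against 502 and 539 CPM in parental A2780 (log2 1.03, SE 0.10; edgeR adjusted p = 2.87e-06). Among the YAP target genes CCN2 was lower at 547 and 504 CPM in A2780-DDP, against 2119 and 2173 CPM in parental A2780 (log2 −2.02, SE 0.09; edgeR adjusted p = 1.91e-09). CCN1 was higher at 2267 and 2176 CPM in A2780-DDP, against 1226 and 1243 CPM in parental A2780 (log2 0.86, SE 0.08). The list had 6 higher and 6 lower of 17.

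The membrane protein gene TM4SF1 and the S100 genes of calcium-binding proteins gave large differences. TM4SF1 was at 4.14 and 3.78 CPM in A2780-DDP, against 403 and 408 CPM in parental A2780 (log2 −6.67, SE 0.12; edgeR adjusted p = 5.56e-12), and its relative TM4SF18 had 2 counts in A2780-DDP and 27.8 and 27.6 CPM in parental A2780. No S100 gene was called higher and 10 of 14 were lower. S100A10, which recruits plasminogen to the surface, was at 39.6 and 33.9 CPM in A2780-DDP, against 159 and 182 CPM in parental A2780 (log2 −2.20, SE 0.11; edgeR adjusted p = 8.46e-09). S100A13 was at 13.7 and 10.9 CPM in A2780-DDP, against 44.2 and 45.7 CPM in parental A2780 (log2 −1.86, SE 0.15). S100A1 stood at 3.42 and 3.02 CPM in A2780-DDP, against 23.5 and 25.8 CPM in parental A2780 (log2 −2.93, SE 0.20). ASPH, an aspartyl hydroxylase, was lower at 70.9 and 63.7 CPM in A2780-DDP, against 1037 and 1032 CPM in parental A2780 (log2 −3.93, SE 0.10; edgeR adjusted p = 1.94e-11).

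Transcription factors of epithelial-mesenchymal transition did not share a direction. ZEB2 was at 0.261 and 0.366 CPM in A2780-DDP, against 37.9 and 34.4 CPM in parental A2780 (log2 −6.83, SE 0.26; edgeR adjusted p = 4.90e-10), and SNAI2 had no count in A2780-DDP and 1.83 and 1.8 CPM in parental A2780, at least 40.7-fold lower. TWIST1 was higher at 38.5 and 36.6 CPM in A2780-DDP, against 5.71 and 6.88 CPM in parental A2780 (log2 2.59, SE 0.13; edgeR adjusted p = 7.62e-09). N-cadherin, CDH2, was lower at 4.41 and 4.36 CPM in A2780-DDP, against 14.6 and 14.7 CPM in parental A2780 (log2 −1.73, SE 0.11; edgeR adjusted p = 4.83e-08). The protocadherins PCDH9 and PCDH17 were higher. PCDH9 was at 269 and 322 CPM in A2780-DDP, against 10.2 and 11.2 CPM in parental A2780 (log2 4.79, SE 0.13; edgeR adjusted p = 2.04e-11). PCDH17 stood at 31.4 and 36.1 CPM in A2780-DDP, against 0.577 and 0.611 CPM in parental A2780 (log2 5.83, SE 0.26; edgeR adjusted p = 2.21e-09). Of 23 tested genes of cadherins and transition factors 9 were higher and 7 lower.

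Genes of neural adhesion and guidance were 17 higher and 5 lower of 35. CELF2, an RNA-binding splicing regulator, was at 29.8 and 31.7 CPM in A2780-DDP with no parental count. LRRTM3, a synaptic adhesion protein, was at 7.39 and 7.9 CPM in A2780-DDP with no parental count, at least 163-fold higher. ROBO2, a receptor of axon guidance, was at 13.5 and 15.1 CPM in A2780-DDP, against 0.0641 and 0.153 CPM in parental A2780 (log2 7.0, SE 0.34; edgeR adjusted p = 5.33e-09). FLRT3, a guidance and adhesion protein, was at 97.3 and 99.4 CPM in A2780-DDP, against 0.673 and 0.520 CPM in parental A2780 (log2 7.37, SE 0.19; edgeR adjusted p = 1.94e-11). KCNK2, a potassium channel of neurons, was at 62.5 and 65.8 CPM in A2780-DDP, against 0.192 and 0.153 CPM in parental A2780 (log2 8.52, SE 0.22; edgeR adjusted p = 2.64e-10). JPH3, a neuronal junctophilin, stood at 59.3 and 59.3 CPM in A2780-DDP, against 0.545 and 0.245 CPM in parental A2780 (log2 7.24, SE 0.20; edgeR adjusted p = 2.76e-11). Lower ones included SLITRK5 at 2.84 and 2.19 CPM in A2780-DDP, against 23 and 23.2 CPM in parental A2780 (log2 −3.18, SE 0.16; edgeR adjusted p = 5.33e-09). The netrin receptor UNC5B was at 6.0 and 7.41 CPM in A2780-DDP, against 43.4 and 42.4 CPM in parental A2780 (log2 −2.67, SE 0.13; edgeR adjusted p = 5.65e-09). Of 11 markers of embryonic kidney and neural lines 8 were higher and 1 lower, with summed levels of 352 and 408 CPM in A2780-DDP, against 143 and 144 CPM in parental A2780. The axonal motor KIF1A was the highest of them in CPM among those called, at 143 and 189 CPM in A2780-DDP, against 13.3 and 11.5 CPM in parental A2780 (log2 3.75, SE 0.14; edgeR adjusted p = 1.62e-09), and EN2 was not called. The part of such cells in these values was not tested.

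SOX2 (ENSG00000181449.4; GRCh38, chromosome 3, 181711924 to 181714436, plus strand, protein coding), a stem cell factor, was at 13.7 and 11.7 CPM in A2780-DDP with no parental count. The gene lies inside the long noncoding gene SOX2-OT, and the strand setting of the counting is not given, so reads of overlapping transcripts cannot be told apart. TERT, the catalytic subunit of telomerase, was higher at 20.3 and 26.9 CPM in A2780-DDP, against 6.8 and 6.94 CPM in parental A2780 (log2 1.79, SE 0.16; edgeR adjusted p = 1.97e-06). SALL4 stood at 169 and 182 CPM in A2780-DDP, against 100.2 and 95.5 CPM in parental A2780 (log2 0.85, SE 0.09). The aldehyde dehydrogenase ALDH1A1, which makes retinoic acid and is used as a stem cell marker in ovarian cancer, was at 1726 and 1609 CPM in A2780-DDP, against 786 and 811 CPM in parental A2780 (log2 1.07, SE 0.11; edgeR adjusted p = 9.78e-06). NES, nestin, was lower at 79.3 and 81.9 CPM in A2780-DDP, against 268 and 279 CPM in parental A2780 (log2 −1.75, SE 0.09; edgeR adjusted p = 6.96e-09). LIN28B was at 7.88 and 9.88 CPM in A2780-DDP, against 24.6 and 24.2 CPM in parental A2780 (log2 −1.45, SE 0.13).

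Genes of stress responses were called in both directions. Genes of the ATF4 response and amino acid supply were 23 lower and 1 higher of 30, with a median log2 fold change of −0.60. ALDH1L2, a mitochondrial folate enzyme, was at 4.93 and 6.95 CPM in A2780-DDP, against 84.6 and 75.1 CPM in parental A2780 (log2 −3.74, SE 0.22; edgeR adjusted p = 3.79e-08). NUPR1 stood at 0.116 and 0.122 CPM in A2780-DDP, against 5.29 and 4.65 CPM in parental A2780 (log2 −5.33, SE 0.45). Of 20 chaperones and folding factors of the endoplasmic reticulum 7 were lower, 1 higher and 12 not called. The lectin chaperone CANX was lower at 190.0 and 207 CPM in A2780-DDP, against 548 and 530.3 CPM in parental A2780 (log2 −1.43, SE 0.09; edgeR adjusted p = 6.44e-08). The factor XBP1 was at 155 and 138 CPM in A2780-DDP, against 322 and 319 CPM in parental A2780 (log2 −1.12, SE 0.11). Cytosolic heat shock proteins were 10 higher and 3 lower of 17. HSPA8, the constitutive HSP70, was at 847 and 835 CPM in A2780-DDP, against 377 and 399 CPM in parental A2780 (log2 1.13, SE 0.09; edgeR adjusted p = 3.49e-07). Its cochaperone DNAJB1 stood at 201 and 189 CPM in A2780-DDP, against 87.2 and 90.5 CPM in parental A2780 (log2 1.14, SE 0.09). HSPA1B was at 59.4 and 53.7 CPM in A2780-DDP, against 7.34 and 7.95 CPM in parental A2780 (log2 2.89, SE 0.12), with the limit that HSPA1A and HSPA1B are near-identical copies. The small heat shock proteins HSPB8 and HSPB1 were lower. HSPB8 was at 1.33 and 1.46 CPM in A2780-DDP, against 31.5 and 34 CPM in parental A2780 (log2 −4.54, SE 0.15; edgeR adjusted p = 1.56e-10). HSPB1 stood at 29.96 and 22.3 CPM in A2780-DDP, against 74.5 and 83.9 CPM in parental A2780 (log2 −1.59, SE 0.16).

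Mitochondrial and nuclear genes of respiration differed. Of 13 mitochondrially encoded messengers 11 were lower and 1 higher, with MT-CO3 at 1849 and 1853 CPM in A2780-DDP, against 4180.0 and 4430.0 CPM in parental A2780 (log2 −1.21, SE 0.09; edgeR adjusted p = 4.42e-07). MT-ND2 was higher at 2548 and 2812 CPM in A2780-DDP, against 1834 and 1840.0 CPM in parental A2780 (log2 0.55, SE 0.09). Nuclear respiratory genes were 12 higher and 0 lower of 34, and 11 of the 12 lie outside the stretch of chromosome 5 described below. NDUFA2, which lies in it, was at 61.7 and 56.9 CPM in A2780-DDP, against 32.1 and 34.1 CPM in parental A2780 (log2 0.85, SE 0.10). The higher count was 5 without A2780-DDP replicate 1 and 5 without parental replicate 1. Of 35 genes of the hypoxia response and glycolysis 10 were lower, 5 higher and 20 not called. The share called was near the 43.8% over protein-coding genes, of which 22.8% were higher and 21% lower. The glycolytic genes HK2 and ALDOC were among the lower ones. HK2 was at 12.7 and 12.1 CPM in A2780-DDP, against 63.9 and 60.4 CPM in parental A2780 (log2 −2.32, SE 0.10; edgeR adjusted p = 1.84e-09). ALDOC stood at 1.71 and 2.29 CPM in A2780-DDP, against 50.5 and 52.7 CPM in parental A2780 (log2 −4.68, SE 0.15; edgeR adjusted p = 7.80e-11).

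A long stretch of chromosome 5 was higher as a block. Among protein-coding genes with a mean of at least 5 CPM over the 4 libraries, 236 of 476 on chromosome 5 were called higher (49.6%) and 55 lower, against 2354 of 10346 on the other chromosomes (22.8%). The rise ran from about 50 to 160 Mb, bounds that were set after seeing the values. Within them 198 of 314 genes were called higher (63.1%) and 23 lower (7.33%), with a median log2 fold change of 0.46 and quartiles of 0.15 and 0.76. Both A2780-DDP libraries showed it, with medians of 0.49 and 0.44 over the parental mean, while parental replicate 1 over parental replicate 2 had a median of 0.03. Outside the bounds the median was 0.07 before 50 Mb (70 genes) and −0.07 from 160 Mb (92 genes). Of 155 bins of 20 Mb over the genome, 6 had a median above 0.25, and all 6 lay on chromosome 5. Of these bins 4 had a median under −0.25, among them the mitochondrial genome, counted as a bin with 13 genes and a median of −0.61. Another was the last bin of chromosome 5, with 11 genes and a median of −0.26.

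Genes with high counts in that stretch included HSPA9, the mitochondrial HSP70, at 1648 and 1546 CPM in A2780-DDP, against 910.1 and 890.3 CPM in parental A2780 (log2 0.84, SE 0.08; edgeR adjusted p = 4.17e-06). CTNNA1, the alpha catenin of adherens junctions, was at 869 and 895 CPM in A2780-DDP, against 526 and 521 CPM in parental A2780 (log2 0.76, SE 0.08; edgeR adjusted p = 7.79e-06). HSPA4, a nucleotide exchange factor, stood at 789.8 and 709 CPM in A2780-DDP, against 422 and 414 CPM in parental A2780 (log2 0.85, SE 0.10). VDAC1, the mitochondrial outer membrane channel, was at 549 and 511 CPM in A2780-DDP, against 300.4 and 323 CPM in parental A2780 (log2 0.78, SE 0.09). EGR1, an immediate early gene that lies there too, was higher by more, at 634 and 709 CPM in A2780-DDP, against 198 and 204 CPM in parental A2780 (log2 1.75, SE 0.10; edgeR adjusted p = 3.79e-08). Of the 15 genes of the stretch with the most counts 12 were called, all higher. LARP1, an RNA-binding protein, had a smaller difference at 465 and 607 CPM in A2780-DDP, against 405 and 378 CPM in parental A2780 (log2 0.46, SE 0.12). STARD4, RPS23 and TNPO1 were not called, with log2 fold changes of 0.09, 0.26 and 0.11. Among the members of the lists above that lie in the stretch are PLK2, IRF1, MSH3, NDUFA2, HBEGF and NRG2, all called higher. Other list members lie there too, some of them called lower or not called. Of the NRF2, BCL2, G1, licensing and antiviral lists, no tested member lay in the stretch.

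**Figure D3:**
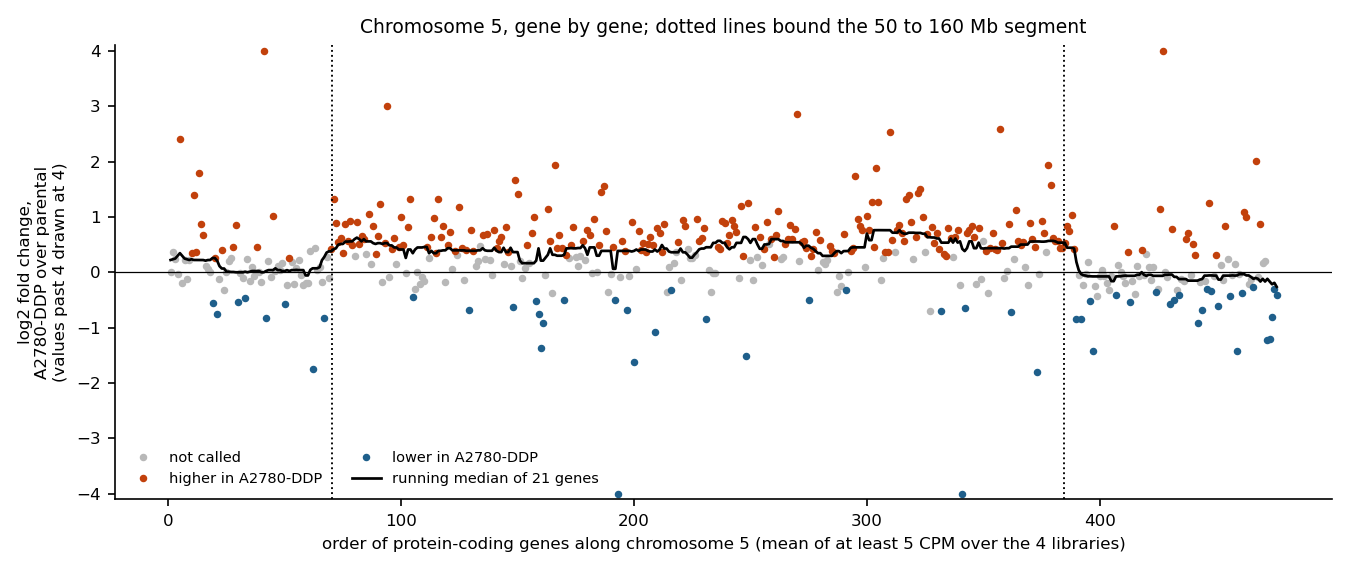
Log2 fold change of A2780-DDP over parental A2780 for 476 protein-coding genes in their order along chromosome 5, with values past 4 in either direction drawn at 4; the black line is a running median of 21 genes and dotted lines bound 50 to 160 Mb. The running median stays above 0 across the bounded stretch, is also above 0 over the first genes of the chromosome and is mostly below 0 from 160 Mb.

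**Figure D4:**
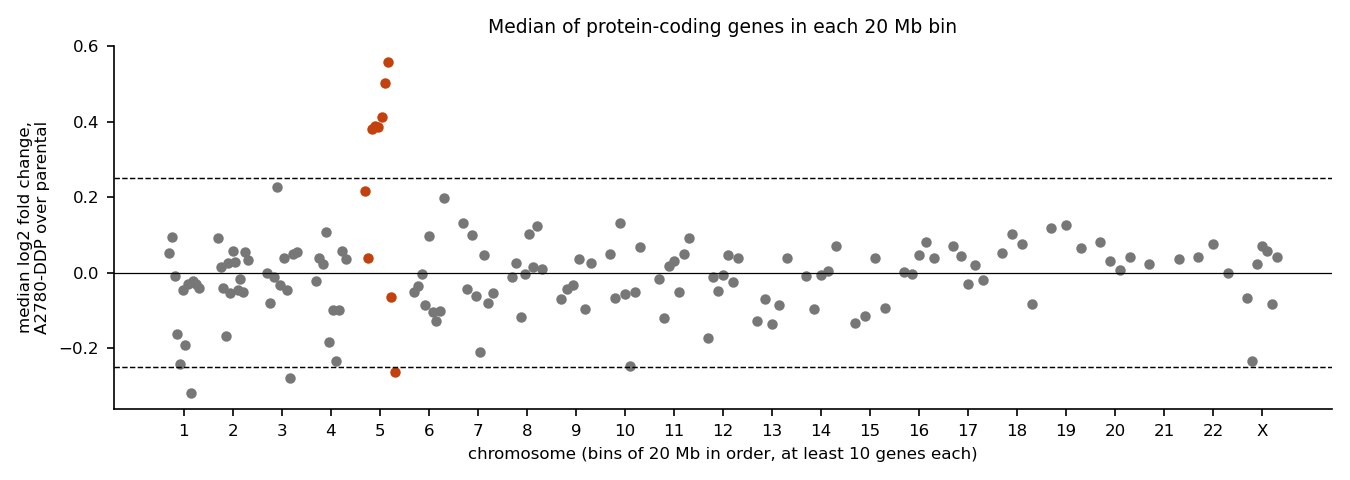
Median log2 fold change of protein-coding genes in bins of 20 Mb on the autosomes and X, placed in order within each chromosome. Chromosome 5 is in orange, dashed lines mark 0.25 and −0.25, and the mitochondrial genome is not drawn. The 6 bins above 0.25 all belong to chromosome 5.

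A shorter run on chromosome 1 was lower. From SRGAP2C to CHD1L (GRCh38, chromosome 1, 121184810 to 147295766) 19 of 26 tested protein-coding genes were called lower and 0 higher, with a median log2 fold change of −0.71. The 14506 windows of 20 genes examined in each direction gave no other region with at least 16 genes called one way. CD160, an immune receptor, was at 0.696 and 1.16 CPM in A2780-DDP, against 77.2 and 82.7 CPM in parental A2780 (log2 −6.42, SE 0.28; edgeR adjusted p = 1.77e-09). TXNIP, an inhibitor of thioredoxin and glucose uptake, stood at 2.14 and 2.19 CPM in A2780-DDP, against 101 and 100.4 CPM in parental A2780 (log2 −5.53, SE 0.12; edgeR adjusted p = 4.84e-12). PDZK1, a scaffold of membrane transporters, was at 1.65 and 2.29 CPM in A2780-DDP, against 27.7 and 23.7 CPM in parental A2780 (log2 −3.70, SE 0.22; edgeR adjusted p = 3.00e-08). Less altered genes between them were lower as well, with the ligase gene RNF115 at 65.6 and 67.1 CPM in A2780-DDP, against 157 and 154 CPM in parental A2780 (log2 −1.22, SE 0.09). POLR3C, a subunit of RNA polymerase III, was at 39.7 and 41.3 CPM in A2780-DDP, against 89.1 and 90.1 CPM in parental A2780 (log2 −1.14, SE 0.10). This region holds near-identical gene copies, SRGAP2C and GPR89A among them, whose counts are uncertain.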

How the data were processed

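Counts were those the authors deposited, 1 table of whole-number HTSeq gene counts per library with 62757 genes and 5 summary lines, which were left out of totals and tests. Reads were aligned with STAR 2.7.8a to GRCh38.p13 and counted with HTSeq 2.0.3, per the submitters' processing notes. RNA was extracted with Trizol, per the labels' protocols. Not given in the sources used here were the annotation release, the read layout and the strand setting. In the 4 A2780 libraries 48.7% to 49.9% of reads fell on no gene, and these libraries had 31195174 to 34506558 gene-assigned counts. Positions and gene types came from GENCODE 29, which held 58318 of the genes.

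edgeR's quasi-likelihood F-test was used with TMM normalization, filterByExpr (minimum count 10) and an adjusted p (Benjamini-Hochberg) under 0.05 as the threshold. The 8 parental and DDP libraries of both lines formed 1 fit with 1 mean per group, so that the spread rested on 4 residual degrees of freedom, with a biological coefficient of variation of 0.104. Alternatives are named in the closing section.

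Members and the 75 gene lists were chosen with earlier results of these data known. Named were ADAR, the 15 largest called changes each way at 10 CPM or more in the higher group without overlap, up to 5 called list members each way at 1 CPM or more, uncalled members with the highest CPM, the first, last and most changed genes of regions, and the most counted genes with at least a 2-fold change. The text prints a part of these, and some genes are not reported here. RNF115, POLR3C, ITM2B, MED4, CASD1, PON2, BET1, PPP1R9A, VIM, MKI67 and the genes of chromosome 5 were picked after their values were seen. With 1 to 3 counts in a group, a ratio with an exact 95% counting interval was used, and intervals and floors cover counting error only. The test was checked on simulated data. Versions were edgeR 4.0.16, DESeq2 1.42.0 and limma 3.58.1 under R 4.3.3. Tables and plots were made with pandas 2.3.3, numpy 2.4.6, matplotlib 3.10.9 and scipy under Python 3.11.15.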

Additional observations from a re-analysis of the deposited data

How the results depend on the processing

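The counts of called genes kept within 1.5 times of the values above under DESeq2 size factors (4376 higher, 3798 lower), upper-quartile scaling, no low-count filter, DESeq2's Wald test (7536 called), limma-voom and fits of the 4 A2780 libraries or of all 14. With a replicate block 7333 genes were called, and with the crossed pairing, added after seeing the data, 7978. Over the 4 A2780 libraries the deviations of same-numbered replicates correlated at −0.299, so the numbers were not taken as pairs. The block left 3 lower licensing genes and 1 higher ABC transporter. It changed the call of no single gene printed above except ADAT2, which follows in part from leaving genes with unsteady calls out of the text. Leaving out 1 library gave 5429 to 7349 called genes and 2566 to 3147 lower ones. Requiring at least a 2-fold change, also added after seeing the data, left 3507. The chromosome 5 median ran from 0.446 to 0.485 under other fits and from 0.475 to 0.564 without 1 library. Of 527 called genes that the naming rule gave, 102 lost their call in at least 1 of 13 alternatives, and these were mostly left out of the text. Signs turned for genes that were not called: without 1 library ADAR ran from −0.09 to 0.20, MED4 from −0.16 to 0.33 and ITM2B from −0.12 to 0.15, and ITM2B was 0.00 under DESeq2 size factors, no low-count filter, DESeq2's Wald test and all 14 libraries. The cause of these shifts was not tested. Where 1 library remained in a group, the fit took its spread from the other groups.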

Other observations

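Position genes of the HOX clusters, which record the body axis of the tissue of origin, differed by cluster. The shares over protein-coding genes were 22.8% higher and 21% lower. In HOXB 8 of 9 tested genes were lower and 0 higher, with HOXB8 at 10.5 and 8.99 CPM in A2780-DDP, against 61.8 and 63.7 CPM in parental A2780 (log2 −2.68, SE 0.15; edgeR adjusted p = 1.70e-08). HOXB9 stood at 47.9 and 52.6 CPM in A2780-DDP, against 112 and 113 CPM in parental A2780 (log2 −1.15, SE 0.09). In HOXC 7 of 10 were lower and 1 higher, HOXC8, at 46.9 and 45.5 CPM in A2780-DDP, against 24.6 and 27.1 CPM in parental A2780 (log2 0.85, SE 0.12). In HOXD 4 of 9 were lower, with HOXD3 at 5.68 and 5.97 CPM in A2780-DDP, against 29.5 and 31.1 CPM in parental A2780 (log2 −2.37, SE 0.19; edgeR adjusted p = 5.30e-07). HOXD9 was higher at 39.3 and 33.5 CPM in A2780-DDP, against 18.5 and 18 CPM in parental A2780 (log2 1.01, SE 0.14). In HOXA 3 of 13 were lower and 2 higher, with HOXA11 lower at 5.13 and 6.4 CPM in A2780-DDP, against 11.4 and 13.2 CPM in parental A2780 (log2 −1.09, SE 0.14).

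Of 20 tested imprinted genes, which are read from 1 parental copy, and nuclear noncoding RNAs, 7 were higher, 7 lower and 6 not called. On chromosome 11 PHLDA2 was at 85.3 and 69.9 CPM in A2780-DDP, against 9.94 and 8.59 CPM in parental A2780 (log2 3.08, SE 0.17; edgeR adjusted p = 1.76e-08). The noncoding H19 was higher at 1.51 and 1.46 CPM in A2780-DDP, against 0.577 and 0.489 CPM in parental A2780 (log2 1.49, SE 0.24). On chromosome 7 SGCE and PEG10, which share a promoter region, were lower. COL1A2, GNG11 and PPP1R9A nearby were lower too, with log2 fold changes of −2.95, −3.52 and −0.68. CASD1 and PON2, also nearby, were higher, with log2 fold changes of 0.39 and 0.51, and BET1 was not called. SGCE stood at 2.32 and 2.8 CPM in A2780-DDP, against 25.5 and 25.5 CPM in parental A2780 (log2 −3.31, SE 0.15; edgeR adjusted p = 2.34e-09). PEG10 was at 19.6 and 23 CPM in A2780-DDP, against 138 and 139 CPM in parental A2780 (log2 −2.69, SE 0.13; edgeR adjusted p = 4.78e-09). The growth regulator GRB10 was lower at 42.4 and 45.8 CPM in A2780-DDP, against 119 and 111 CPM in parental A2780 (log2 −1.38, SE 0.09).

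Of 19 tested cancer-testis antigens 2 were higher and 6 lower. MAGEC2 was lower at 0.580 and 0.579 CPM in A2780-DDP, against 14.4 and 14 CPM in parental A2780 (log2 −4.60, SE 0.25; edgeR adjusted p = 1.76e-08). MAGEA1 was higher at 8.38 and 9.15 CPM in A2780-DDP, against 3.05 and 3.0 CPM in parental A2780 (log2 1.54, SE 0.17), with the limit that MAGEA genes have near-identical copies. Genes of DNA methylation and Polycomb were 6 higher and 8 lower of 28, and SWI/SNF subunits 4 higher and 5 lower of 26. Over all genes 18% were higher and 17.3% lower, and over protein-coding genes 22.8% were higher and 21% lower. The DNA methyltransferase DNMT3B was lower at 36.9 and 48.7 CPM in A2780-DDP, against 120.0 and 113 CPM in parental A2780 (log2 −1.44, SE 0.14; edgeR adjusted p = 3.41e-06). TET1, which oxidises methylated cytosine, was lower at 2.81 and 2.29 CPM in A2780-DDP, against 9.75 and 8.35 CPM in parental A2780 (log2 −1.81, SE 0.19; edgeR adjusted p = 7.59e-06). The Polycomb methyltransferase EZH2 was lower at 124 and 122 CPM in A2780-DDP, against 184 and 184 CPM in parental A2780 (log2 −0.57, SE 0.08). SMARCA2, a SWI/SNF ATPase, was at 2.64 and 1.92 CPM in A2780-DDP, against 7.12 and 7.52 CPM in parental A2780 (log2 −1.67, SE 0.18). Replication histones, whose messengers mostly lack poly(A) tails, were 13 higher and 0 lower of 19 tested. HMGA1, an architectural chromatin protein, was higher at 1586 and 1691 CPM in A2780-DDP, against 795 and 836 CPM in parental A2780 (log2 1.02, SE 0.09; edgeR adjusted p = 9.14e-07). Cytosolic ribosomal proteins were 2 higher and 2 lower of 49, and without A2780-DDP replicate 2 the higher count was 11.

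The genes with the largest changes included some outside every list. PLA2G3, a secreted phospholipase, had 0 and 0.0610 CPM in A2780-DDP and 113 and 117 CPM in parental A2780, a ratio of 3882 (95% counting interval 1074 to 32064) for parental A2780 over A2780-DDP. SCNN1A, a sodium channel subunit, was at 0 and 0.152 CPM in A2780-DDP, against 47 and 41.1 CPM in parental A2780 (log2 −9.13, SE 0.34; edgeR adjusted p = 4.42e-10). PSD3 stood at 0.0580 and 0.366 CPM in A2780-DDP, against 69 and 61.7 CPM in parental A2780 (log2 −8.26, SE 0.34; edgeR adjusted p = 1.08e-09). ARMCX6 had no count in A2780-DDP and 10.7 and 11.1 CPM in parental A2780, at least 245-fold lower. ARID5B, a chromatin factor, was higher at 71.7 and 85 CPM in A2780-DDP, against 0.192 and 0.887 CPM in parental A2780 (log2 7.16, SE 0.27; edgeR adjusted p = 5.78e-10). TAFA5, a secreted neural protein, was at 35.6 and 34.8 CPM in A2780-DDP, against 0.353 and 0.245 CPM in parental A2780 (log2 6.88, SE 0.25; edgeR adjusted p = 1.40e-09).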
